A study of Mus musculus with 9 samples.

Results

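Chemokines and their receptors were followed in RNA-seq of mouse heart. The members are the genes whose mouse symbol begins with Ccl, Ccr, Cxcl, Cxcr or Ackr and a digit, plus Cx3cl1 and Cx3cr1, chosen by name and not by their values. The 9 files list 53 such genes among 16873, made up of 34 ligands, 15 signalling receptors and 4 atypical receptors. Hearts came from Sting-/- mice given doxorubicin (Sting-/- DOX), from WT mice given doxorubicin (WT DOX) and from WT mice given saline (saline), with 3 libraries in each of the 3 groups. The allele is labelled only as Sting-/-, and strain, age, dose and time are not given in the sample labels. The series describes the doxorubicin treatment as low-dose and chronic, and asks what the cGAS-STING pathway does in hearts injured by this anthracycline. Sting-/- hearts without doxorubicin were not analysed here, so genotype and response to the drug cannot be told apart in comparisons with the Sting-/- group.

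Chemokines are small secreted proteins that direct the movement of leukocytes by binding receptors coupled to inhibitory G proteins. CC chemokines such as Ccl2 mainly draw monocytes, macrophages, lymphocytes and eosinophils. CXC chemokines with a Glu-Leu-Arg motif draw neutrophils through Cxcr2, and those induced by interferon draw activated T and NK cells through Cxcr3. Atypical receptors bind and remove chemokines without G protein signalling. In the injured heart, Ccl2 and its receptor Ccr2 are known for bringing in blood monocytes, and Cxcl12 and Cxcr4 for retaining progenitor cells and supporting vessels.

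Levels are in FPKM, the fragments of a gene divided by its transcript length in kilobases and by the library's mapped fragments. Being per length, they can be compared between genes. Low values move in steps of 1 read, which placed the depth at about 8.0 to 8.5 M fragments for Sting-/- DOX, 13.0 to 13.4 M for WT DOX and 11.3 to 11.6 M for saline. Between 47.2% and 53.7% of the values used lay within 0.1 of a whole read, so these depths are approximate. Sting1, the deleted gene, was listed at 0.06, 0 and 0 FPKM in the Sting-/- DOX libraries, against 17.49 to 17.96 FPKM in WT DOX and 5.1 to 5.93 FPKM in saline libraries. Whether each library is a different animal is not labelled, and the p-values reflect only how far these libraries differ within a group, which may be technical. Libraries of 1 group had Pearson's r of at least 0.996 across genes on the log2(FPKM + 1) scale.

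Marker lists of 13 cell types were summed in each library. Cardiomyocyte markers, which define the labelled tissue, summed to 6010 to 6400 FPKM in Sting-/- DOX, 23100 to 25400 in WT DOX and 31600 to 32100 in saline libraries. Neutrophil markers summed to 82.5 to 98.6 FPKM in Sting-/- DOX, 221 to 287 in WT DOX and 5.74 to 6.13 in saline. Monocyte and macrophage markers summed to 1420 to 1460 FPKM in Sting-/- DOX, 1000 to 1070 in WT DOX and 234 to 273 in saline. Lyz2 carried most of this sum. The other 7 markers were also summed, a split made after seeing the data. They gave 234.2 to 246 FPKM in Sting-/- DOX, 327.7 to 368.3 in WT DOX and 56.6 to 59.7 in saline. Without Lyz2 WT DOX was thus highest, but this order rested on Ly6c2. Ly6c2 averaged 3.29 FPKM in Sting-/- DOX, 129.6 in WT DOX and 3.96 in saline. Of the rest, Adgre1, Cd14, Cd68 and Csf1r had higher means in Sting-/- DOX than in WT DOX, and Itgam and Mrc1 had lower means. All doxorubicin libraries lay above all saline libraries in both myeloid sums, and the neutrophil sum was highest in WT DOX. Endothelial markers summed to 643 to 698 FPKM in Sting-/- DOX, 165 to 172 in WT DOX and 187 to 188 in saline. Fibroblast markers summed to 3090 to 3270 FPKM in Sting-/- DOX, 593 to 602 in WT DOX and 457 to 464 in saline. Col1a1 carried most of the Sting-/- DOX sum, averaging 1988 FPKM there, 126 in WT DOX and 15.6 in saline. Dcn, Lum and Tcf21 also had higher means in Sting-/- DOX than in WT DOX, whereas Pdgfra did not (9.09 against 9.64 FPKM). Of the markers summed, none was at 0 in all 3 libraries of a group. Ly6g of the neutrophil list and Trac of the T cell list were not analysed here and are in no sum. In bulk tissue a change in the number of cells of a type and a change in RNA per cell cannot be told apart.

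**Figure D1:**
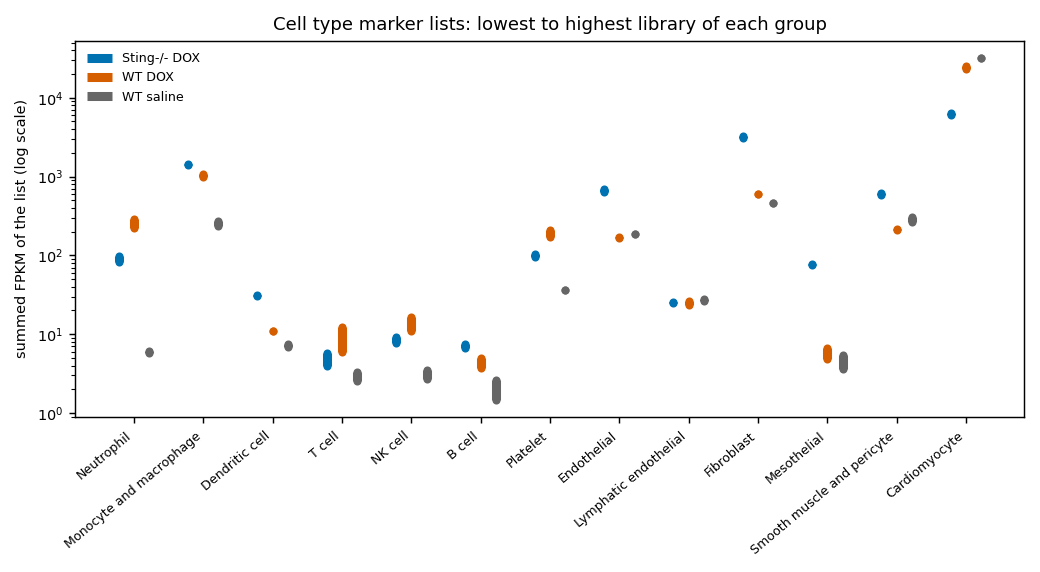
Summed FPKM of 13 cell type marker lists on a log axis, with a bar from the lowest to the highest of the 3 libraries of each group (dots at both ends). Neutrophil markers were highest in WT DOX, and endothelial, fibroblast and mesothelial markers were highest in Sting-/- DOX.

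Of the 53 members, 41 averaged 1 FPKM or more across the 9 libraries and were tested. The test was limma on log2(FPKM + 1), fitted on 12485 genes with adjustment over all of them, and a member was called at an adjusted p under 0.05. A log2 fold change on this scale understates the change of low genes. Of the 41, 28 averaged at least 1 FPKM in every group. The other 13 (Ackr1, Ackr2, Ccl17, Ccl19, Ccl27b, Ccl3, Ccl4, Cxcl13, Cxcl2, Cxcl5, Cxcr2, Cxcr3 and Cxcr6) were under 1 FPKM in at least 1 group. These entered through the groups in which they were higher, so the counts over the 41 describe them and are no support for a change. The 3 tested members nearest the limit were Ackr1, Ccl27b and Cxcr3 at means of 1.18, 1.13 and 1.15 FPKM, and the highest untested member was Ccr7 at 0.696 FPKM.

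In WT DOX against saline, 30 of 41 tested members rose and 3 fell, where 45.3% of all genes tested rose and 21.5% fell. Their median log2 fold change was 1.18, beside 0.128 over all genes tested. In Sting-/- DOX against WT DOX, 15 members were higher and 18 lower, where 54.1% of all genes were higher and 29.7% lower. The members' median was -0.174 beside 0.249 over all genes. In Sting-/- DOX against saline, 34 were higher and 3 lower, where 63.0% and 25.9% of all genes were called, with medians of 1.21 and 0.494. Median-ratio scaling, which centres the groups on their typical gene, moved the share of higher among all called genes. It gave 41.2% against 67.8% without it in WT DOX against saline, 46.7% against 64.6% in Sting-/- DOX against WT DOX and 49.0% against 70.9% in Sting-/- DOX against saline. The members' medians under that scaling were 0.969, -0.486 and 0.846 in these comparisons, beside -0.085, -0.049 and -0.016 over all genes. A pseudocount of 0.1 gave a change over 1.5 times as large for 7 members that stayed called in WT DOX against saline (Ackr1, Ackr2, Ccl3, Cxcl13, Cxcl2, Cxcr3 and Cxcr6) and for 5 in Sting-/- DOX against WT DOX (Ackr1, Ackr2, Ccl17, Ccl25 and Cxcl13). Any 2 of these comparisons share 1 group of libraries. Libraries of both groups did not overlap for 29 members higher and 3 lower in WT DOX against saline, where 47.8% and 23.8% of all genes were separated in this way. In Sting-/- DOX against WT DOX this held for 14 higher and 17 lower, where 54.7% and 30.1% of all genes did so. In Sting-/- DOX against saline it held for 32 higher and 3 lower, where 63.2% and 26.0% of all genes did so.

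**Figure D2:**
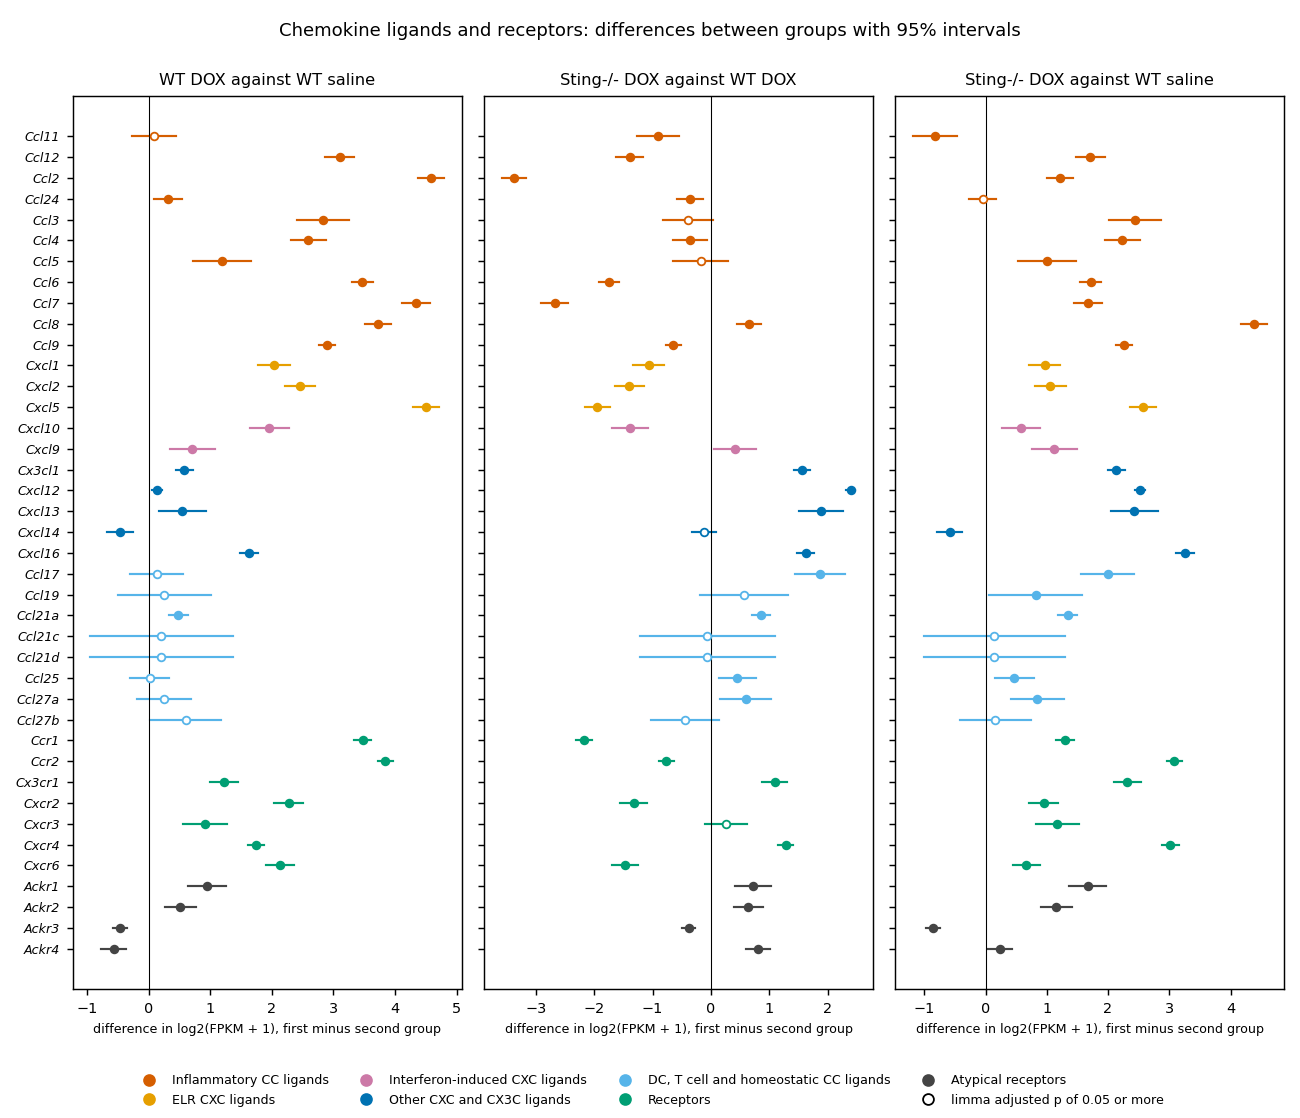
Differences in log2(FPKM + 1) of 40 tested members in the 3 comparisons, first minus second group, as points with 95% intervals coloured by role. Open points had a limma adjusted p of 0.05 or more. In the left panel the inflammatory ligands and the receptors lie right of 0, and in the middle panel Ccl2, Ccl7 and Ccr1 lie farthest left while Cxcl12 lies farthest right.

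Ccl2, Ccl7 and Ccl12, which draw monocytes, were highest in WT DOX hearts, and among the 41 tested members Ccl2 had the largest log2 fold change in Sting-/- DOX against WT DOX. In WT DOX against saline it was also the largest on this scale, but with a pseudocount of 0.1 that of Cxcl5 was larger. Ccl2 (gene ID 20296), the main ligand of Ccr2, was at 11.6, 11.8 and 11.9 FPKM in Sting-/- DOX hearts, 120.3, 144.7 and 129.8 FPKM in WT DOX hearts and 3.61, 5.14 and 4.9 FPKM in saline hearts. The 3 WT DOX libraries stood far above the other 6, and no groups overlapped. The ratio of means was 28.9 for WT DOX over saline, with a log2 fold change of 4.59 (SE 0.098, limma adjusted p = 5.28e-12). Sting-/- DOX against WT DOX gave -3.37 (SE 0.098, limma adjusted p = 1.34e-11), a ratio of means of 0.089. Sting-/- DOX stayed above saline, with a log2 fold change of 1.21 (SE 0.098, limma adjusted p = 1.25e-07).

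Ccl7 (gene ID 20306), a further Ccr2 ligand whose gene neighbours Ccl2 on chromosome 11, had 21.8, 19.8 and 25.1 FPKM in Sting-/- DOX hearts, 129.5, 162.4 and 149.9 FPKM in WT DOX hearts and 5.39, 7.01 and 6.57 FPKM in saline hearts. Its groups fell in the same order as those of Ccl2 and did not overlap. Its log2 fold change was 4.34 (SE 0.11, limma adjusted p = 1.43e-11) in WT DOX against saline and -2.67 (SE 0.11, limma adjusted p = 2.13e-10) in Sting-/- DOX against WT DOX. Ccl12 (gene ID 20293), a mouse chemokine that also acts on Ccr2, was at 31.8, 33.3 and 30.4 FPKM in Sting-/- DOX hearts, 76.5, 92.3 and 87.6 FPKM in WT DOX hearts and 7.6, 11.2 and 8.7 FPKM in saline hearts. Ccl12 rose with doxorubicin in WT hearts (log2 fold change 3.10, SE 0.11, limma adjusted p = 2.69e-10) and was lower in Sting-/- DOX than in WT DOX (log2 fold change -1.39, SE 0.11, limma adjusted p = 1.21e-07). Of these 3 ligands, Ccl12 kept the most of its WT DOX level in Sting-/- DOX hearts, with a ratio of means of 0.37, against 0.15 for Ccl7 and 0.089 for Ccl2.

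Ccl8 (gene ID 20307) lies in the same run of neighbouring genes, with Ccl12 on one side, and in mice acts through Ccr8. It had 50.1, 48.5 and 43.2 FPKM in Sting-/- DOX hearts, 27.9, 32.3 and 28.9 FPKM in WT DOX hearts and 1.72, 1.12 and 1.15 FPKM in saline hearts. The highest libraries were those of Sting-/- DOX, and the 3 groups did not overlap. Ccl8 rose in WT DOX against saline (log2 fold change 3.73, SE 0.096, limma adjusted p = 2.33e-11) and was higher still in Sting-/- DOX than in WT DOX (log2 fold change 0.65, SE 0.096, limma adjusted p = 4.53e-05). With median-ratio scaling the difference between Sting-/- DOX and WT DOX was 0.32 and still called. Ccl8 was the single inflammatory CC ligand of the 11 tested that was called higher in Sting-/- DOX than in WT DOX, while 8 were called lower. Over all genes tested 54.1% were higher and 29.7% lower in this comparison. Among the 8, the call of Ccl4 was lost in several alternatives, given below.

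The next CC group includes ligands of Ccr1. Ccl6 (gene ID 20305), a rodent Ccr1 ligand made by myeloid cells, was at 67.4, 63.4 and 62.1 FPKM in Sting-/- DOX hearts, 202.4, 234.4 and 218.4 FPKM in WT DOX hearts and 16.6, 21.3 and 18.8 FPKM in saline hearts. It had the highest mean of the member ligands in WT DOX hearts, and its groups did not overlap. Its log2 fold change was 3.47 (SE 0.078, limma adjusted p = 8.35e-12) in WT DOX against saline and -1.75 (SE 0.078, limma adjusted p = 7.03e-10) in Sting-/- DOX against WT DOX. Ccl9 (gene ID 20308), a close relative with the same receptor, had 32.8, 29.4 and 31.9 FPKM in Sting-/- DOX hearts, 47.04, 51.2 and 50.4 FPKM in WT DOX hearts and 5.86, 6.16 and 5.32 FPKM in saline hearts. Ccl9 rose in WT DOX against saline (log2 fold change 2.90, SE 0.061, limma adjusted p = 4.85e-12) and was lower in Sting-/- DOX than in WT DOX (log2 fold change -0.64, SE 0.061, limma adjusted p = 7.76e-07), or -0.97 with median-ratio scaling.

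Ccl3 (gene ID 20302), which acts on Ccr1, had 7.81, 6.21 and 3.97 FPKM in Sting-/- DOX hearts, 6.87, 8.13 and 8.9 FPKM in WT DOX hearts and 0.36, 0.47 and 0 FPKM in saline hearts. All doxorubicin libraries lay above all saline libraries, while both doxorubicin groups overlapped. Ccl3 rose in WT DOX against saline (log2 fold change 2.83, SE 0.19, limma adjusted p = 1.05e-07), but Sting-/- DOX against WT DOX did not pass the test (log2 fold change -0.39, SE 0.19, limma adjusted p = 0.0793, 95% interval -0.82 to 0.03). That difference passed under quantile normalization and under median-ratio scaling (-0.68 each) and without Sting-/- DOX library 1 (-0.58). Ccl4 (gene ID 20303), a chemokine of activated macrophages and lymphocytes, had 7.93, 5.74 and 6.25 FPKM in Sting-/- DOX hearts, 7.51, 9.99 and 8.82 FPKM in WT DOX hearts and 0.43, 0.57 and 0.87 FPKM in saline hearts. Both doxorubicin groups again overlapped and lay above saline. Its log2 fold change was 2.59 (SE 0.13, limma adjusted p = 6.47e-09) in WT DOX against saline and -0.36 (SE 0.13, limma adjusted p = 0.023) in Sting-/- DOX against WT DOX. The second call was lost without WT DOX library 2 (-0.27) or 3 (-0.35), without Sting-/- DOX library 2 (-0.27) or 3 (-0.33), with a pseudocount of 0.1 (-0.40) and with TPM scaling (-0.30).

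Ccl5 (gene ID 20304), a T cell and NK cell chemokine, had 8.07, 12.8 and 14.03 FPKM in Sting-/- DOX hearts, 16.2, 10.4 and 12.7 FPKM in WT DOX hearts and 4.74, 3.94 and 7.13 FPKM in saline hearts. Libraries of both doxorubicin groups overlapped, and each group lay above saline. Ccl5 rose in WT DOX against saline (log2 fold change 1.18, SE 0.22, limma adjusted p = 0.000422), and Sting-/- DOX against WT DOX did not pass (log2 fold change -0.17, SE 0.22, limma adjusted p = 0.463, 95% interval -0.65 to 0.30). Beside it, T cell markers summed to 3.92 to 5.76 FPKM in Sting-/- DOX, 6.03 to 12.5 in WT DOX and 2.56 to 3.36 in saline, and their part in the result was not tested.

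The eotaxins, which draw eosinophils through Ccr3, were low. Ccl11 (gene ID 20292) averaged 1.14 ± 0.467 FPKM in Sting-/- DOX, 2.98 ± 0.393 FPKM in WT DOX and 2.8 ± 0.798 FPKM in saline hearts (SD, n = 3 each). It was lower in Sting-/- DOX than in WT DOX (log2 fold change -0.91, SE 0.17, limma adjusted p = 0.000262) and did not pass in WT DOX against saline (log2 fold change 0.08, SE 0.17, limma adjusted p = 0.675, 95% interval -0.28 to 0.45). Ccl24 (gene ID 56221) averaged 1.46 ± 0.196 FPKM in Sting-/- DOX, 2.16 ± 0.205 FPKM in WT DOX and 1.55 ± 0.276 FPKM in saline hearts. It was lower in Sting-/- DOX than in WT DOX (log2 fold change -0.36, SE 0.1, limma adjusted p = 0.00557; -0.56 under median-ratio scaling and -0.69 under quantile normalization). Its rise in WT DOX against saline (log2 fold change 0.31, SE 0.1, limma adjusted p = 0.0169) was lost without saline library 1 (0.25) or 2 (0.29), without WT DOX library 2 (0.27), under quantile normalization (0.03) and under median-ratio scaling (0.16).

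**Figure D3:**
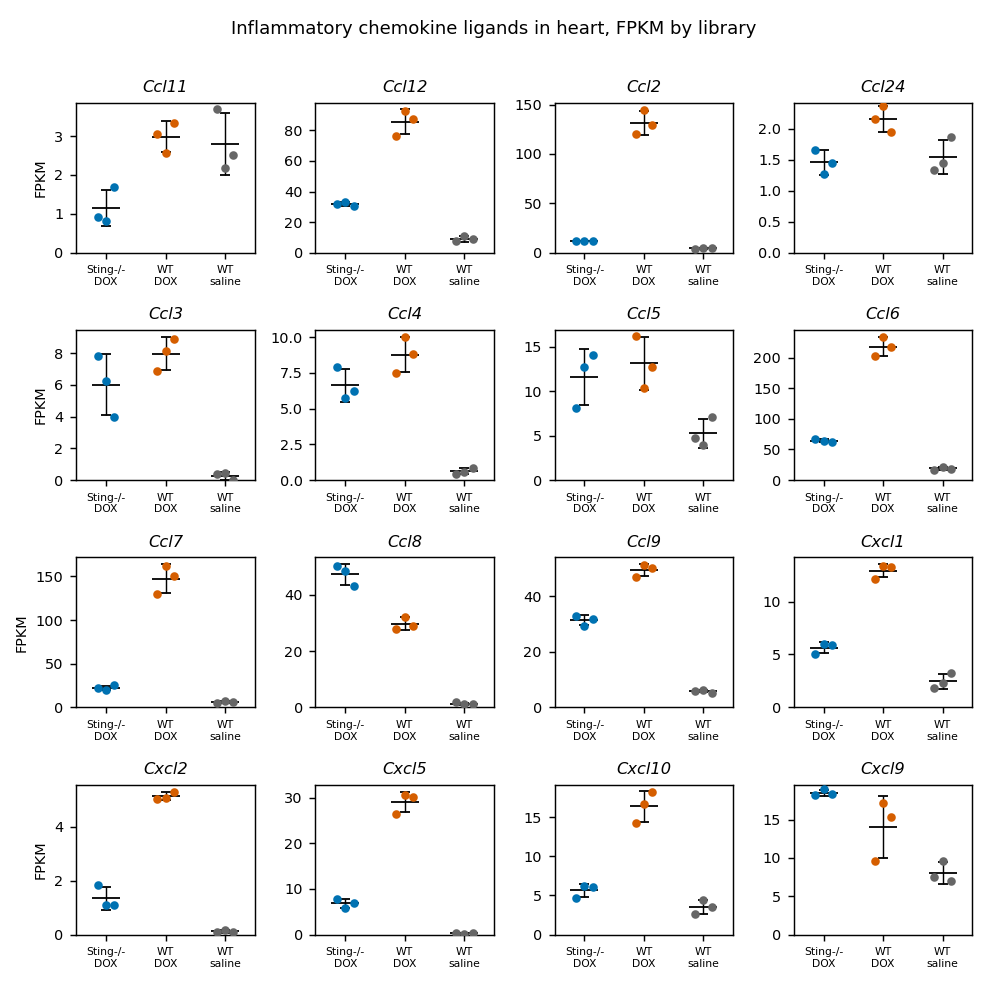
FPKM of 16 inflammatory chemokine ligands, 1 panel each with its own linear axis from 0, with points for the 3 libraries of each group and a bar for the mean with SD. Ccl2 sat between 120.3 and 144.7 FPKM in WT DOX libraries and at or below 11.9 FPKM in all others, whereas Ccl8 and Cxcl9 had their highest mean in Sting-/- DOX.

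Among CXC ligands, Cxcl1, Cxcl2 and Cxcl5 carry the Glu-Leu-Arg motif and draw neutrophils, and Cxcl9 and Cxcl10 are induced by interferon. The 250 bases before the RefSeq start of 4 of these genes on chromosome 5 are shown. Cxcl1, Cxcl2 and Cxcl10 are known targets of NF-kB. Whether any marked match bears on the levels in these hearts was not tested. Sequences are from RefSeq for GRCm38.p6, 5′ to 3′ in the direction of the gene. Capitals mark matches on either strand to the kappaB consensus or to the core of the interferon-stimulated response element (GAAA, any 2 bases, then GAAA).
Cxcl1 (chr5:90890995-90891244, + strand): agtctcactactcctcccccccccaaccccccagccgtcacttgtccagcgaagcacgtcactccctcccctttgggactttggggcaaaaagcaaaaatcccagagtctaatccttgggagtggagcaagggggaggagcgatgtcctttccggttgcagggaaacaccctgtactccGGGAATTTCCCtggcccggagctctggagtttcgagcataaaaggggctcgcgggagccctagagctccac
Cxcl2 (chr5:90903649-90903898, + strand): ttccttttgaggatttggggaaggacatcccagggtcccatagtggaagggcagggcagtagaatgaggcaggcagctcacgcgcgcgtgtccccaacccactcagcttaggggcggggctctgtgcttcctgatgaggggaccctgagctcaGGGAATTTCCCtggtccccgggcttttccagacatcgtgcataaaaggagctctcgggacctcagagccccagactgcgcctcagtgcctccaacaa
Cxcl10 (chr5:92348890-92349139, - strand): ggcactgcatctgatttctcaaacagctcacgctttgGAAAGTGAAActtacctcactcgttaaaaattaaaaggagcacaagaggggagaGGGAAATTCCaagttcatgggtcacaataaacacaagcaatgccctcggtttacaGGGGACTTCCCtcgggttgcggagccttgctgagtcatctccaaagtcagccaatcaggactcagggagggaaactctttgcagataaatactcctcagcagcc
Cxcl9 (chr5:92328080-92328329, - strand): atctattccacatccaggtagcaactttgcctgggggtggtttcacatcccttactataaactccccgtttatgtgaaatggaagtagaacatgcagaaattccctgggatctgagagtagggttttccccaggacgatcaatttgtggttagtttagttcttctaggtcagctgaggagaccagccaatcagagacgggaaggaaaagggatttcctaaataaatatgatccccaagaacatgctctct
Cxcl1 and Cxcl2 each hold a kappaB match on both strands, offset by 1 base, which begins 71 bases before the start in Cxcl1 and 97 bases before it in Cxcl2. Cxcl10 holds kappaB matches from 159 and 104 bases before the start and a response element core from 213 bases before it, and neither motif occurs in the window shown for Cxcl9. Only exact matches were counted, so a window without a match may still hold a site. Of 32851 RefSeq promoter windows of 300 bases, 8.46% held the kappaB consensus and 3.44% the response element core. Of the 53 members 39 matched that table, with 46 windows, of which 10 (21.7%) held the kappaB consensus and 3 (6.52%) the core. Members without a window, among them Ccl2, Ccl4, Ccl5, Ccl7, Ccl11, Cxcl5 and Cxcl16, were not searched. The members with a kappaB match were Ackr2, Ccl1, Ccl27a, Ccl9, Ccr1, Ccr3, Ccr6, Cxcl1, Cxcl10 and Cxcl2, and those with a core were Ccl19, Cxcl10 and Cxcl14.

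Cxcl5 (gene ID 20311), made in mice by epithelial and stromal cells and platelets, was at 7.79, 5.87 and 6.83 FPKM in Sting-/- DOX hearts, 26.4, 30.6 and 30.1 FPKM in WT DOX hearts and 0.31, 0.22 and 0.43 FPKM in saline hearts. WT DOX stood highest and saline was near 0, with no overlap between groups. The log2 fold change was 4.51 (SE 0.097, limma adjusted p = 5.78e-12) in WT DOX against saline and -1.94 (SE 0.097, limma adjusted p = 1.91e-09) in Sting-/- DOX against WT DOX. Cxcl1 (gene ID 14825) had 5.08, 6.01 and 5.85 FPKM in Sting-/- DOX hearts, 12.2, 13.4 and 13.2 FPKM in WT DOX hearts and 1.85, 2.29 and 3.21 FPKM in saline hearts. Cxcl1 rose in WT DOX against saline (log2 fold change 2.03, SE 0.12, limma adjusted p = 2.53e-08) and was lower in Sting-/- DOX than in WT DOX (log2 fold change -1.07, SE 0.12, limma adjusted p = 3.64e-06).

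Cxcl2 (gene ID 20310), which with Cxcl1 has the window matches shown above, was at 1.83, 1.1 and 1.11 FPKM in Sting-/- DOX hearts, 5.01, 5.07 and 5.3 FPKM in WT DOX hearts and 0.09, 0.17 and 0.09 FPKM in saline hearts. Groups did not overlap, and WT DOX was highest. Its log2 fold change was 2.46 (SE 0.11, limma adjusted p = 3.03e-09) in WT DOX against saline and -1.40 (SE 0.11, limma adjusted p = 1.95e-07) in Sting-/- DOX against WT DOX. With a pseudocount of 0.1 the first was 4.61. A small part of its transcript (3.3% of 50-base windows) also occurs in Cxcl3, which was not analysed here. All 3 neutrophil-drawing ligands tested rose in the first comparison and were lower in the second, where 45.3% and 29.7% of all genes did so. Beside them, 7 of 7 tested neutrophil markers rose in WT DOX against saline (median 3.26). In Sting-/- DOX against WT DOX 6 of 7 were lower (median -1.46). Cxcl2, Cxcl5 and the markers Mmp8, Mmp9, Retnlg and Trem1 averaged under 1 FPKM in saline. They entered the test through groups in which they were higher, so these counts are no support for a change. The part of the markers in the result was not tested.

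Cxcl10 (gene ID 15945), whose window held both motifs, had 4.72, 6.21 and 6.09 FPKM in Sting-/- DOX hearts, 14.3, 16.7 and 18.3 FPKM in WT DOX hearts and 2.6, 4.44 and 3.52 FPKM in saline hearts. Libraries of WT DOX lay above all others, and no groups overlapped. Cxcl10 rose in WT DOX against saline (log2 fold change 1.96, SE 0.14, limma adjusted p = 1.74e-07) and was lower in Sting-/- DOX than in WT DOX (log2 fold change -1.38, SE 0.14, limma adjusted p = 1.74e-06). Sting-/- DOX against saline gave 0.57 (SE 0.14, limma adjusted p = 0.00226), which did not pass under quantile normalization (0.023) or median-ratio scaling (0.090). On the opposite strand 5.5% of its transcript windows overlap Art3, an abundant gene at 47.9 ± 4.74 FPKM in Sting-/- DOX, 164.8 ± 6.39 in WT DOX and 244.9 ± 16.3 in saline hearts, and the counting is not stated to use strand.

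Cxcl9 (gene ID 17329), a Cxcr3 ligand induced mainly by interferon gamma, was ordered differently from Cxcl10. It was at 18.2, 18.97 and 18.4 FPKM in Sting-/- DOX hearts, 9.55, 17.2 and 15.4 FPKM in WT DOX hearts and 7.52, 9.63 and 6.98 FPKM in saline hearts. All Sting-/- DOX libraries lay above those of the other groups, and WT DOX library 1 overlapped saline. Cxcl9 rose in WT DOX against saline (log2 fold change 0.71, SE 0.17, limma adjusted p = 0.00264). Sting-/- DOX against WT DOX gave 0.41 (SE 0.17, limma adjusted p = 0.0373), a call lost without WT DOX library 1 (0.17), without Sting-/- DOX library 1 (0.42), 2 (0.39) or 3 (0.42), with no filter on low values (0.41), with no variance trend (0.41), under quantile normalization (0.19) and under median-ratio scaling (0.09).

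Cxcl12, Cxcl16, Cx3cl1 and Cxcl13 had their highest levels in Sting-/- DOX hearts. Cxcl12 (gene ID 20315), the ligand of Cxcr4 and Ackr3, was at 202.1, 202.1 and 203.9 FPKM in Sting-/- DOX hearts, 37.9, 38.02 and 37.2 FPKM in WT DOX hearts and 35.8, 33.7 and 33.7 FPKM in saline hearts. Sting-/- DOX libraries lay far above all others, whereas WT DOX and saline lay close together without overlap. The log2 fold change was 2.40 (SE 0.037, limma adjusted p = 9.65e-14) in Sting-/- DOX against WT DOX, a ratio of means of 5.38. In WT DOX against saline it was 0.13 (SE 0.037, limma adjusted p = 0.00857), which turned to -0.12 (limma adjusted p = 0.0159) under median-ratio scaling and -0.04 under quantile normalization. Among the member ligands, Cxcl12 had the highest mean in Sting-/- DOX and in saline hearts.

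Cxcl16 (gene ID 66102), a membrane-bound ligand of Cxcr6, had 83.6, 79.9 and 83.5 FPKM in Sting-/- DOX hearts, 28.8, 24.7 and 24.9 FPKM in WT DOX hearts and 7.4, 8.56 and 7.33 FPKM in saline hearts. The 3 groups did not overlap. Cxcl16 rose in WT DOX against saline (log2 fold change 1.63, SE 0.069, limma adjusted p = 1.25e-09) and was higher in Sting-/- DOX than in WT DOX (log2 fold change 1.62, SE 0.069, limma adjusted p = 4.09e-10). On the opposite strand 20.0% of its transcript windows overlap Zmynd15, which averaged 14.9 ± 0.097 FPKM in Sting-/- DOX, 3.54 ± 0.523 in WT DOX and 2.66 ± 0.192 in saline hearts, and reads of the overlap cannot be told apart without strand. Cx3cl1 (gene ID 20312), or fractalkine, the membrane-bound endothelial ligand of Cx3cr1, had 21.4, 19.6 and 19.4 FPKM in Sting-/- DOX hearts, 6.39, 6.16 and 6.01 FPKM in WT DOX hearts and 3.62, 4.16 and 3.68 FPKM in saline hearts. Its order was the same, with no overlap. Fold changes on the log2 scale were 0.58 (SE 0.063, limma adjusted p = 6.55e-06) in WT DOX against saline (0.37 with median-ratio scaling) and 1.55 (SE 0.063, limma adjusted p = 2.92e-10) in Sting-/- DOX against WT DOX. Beside these 3 ligands, 5 of 5 endothelial markers and 4 of 5 fibroblast markers were higher in Sting-/- DOX than in WT DOX (medians 2.01 and 1.33). So were 4 of 4 mesothelial markers (median 3.25) and 4 of 4 smooth muscle and pericyte markers (1.73), while 5 of 5 cardiomyocyte markers were lower (-2.03). In this comparison 54.1% of all genes tested were higher and 29.7% lower. The mesothelial markers Msln and Upk3b averaged 0.28 and 0.31 FPKM in WT DOX and entered the test through Sting-/- DOX. The part of these lists in the result was not tested.

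Cxcl13 (gene ID 55985), which draws B cells through Cxcr5, averaged 4.81 ± 0.438 FPKM in Sting-/- DOX, 0.62 ± 0.458 FPKM in WT DOX and 0.08 ± 0.08 FPKM in saline hearts (SD, n = 3 each). It was higher in Sting-/- DOX than in WT DOX (log2 fold change 1.89, SE 0.18, limma adjusted p = 6.88e-07). In WT DOX against saline it gave 0.54 (SE 0.18, limma adjusted p = 0.0165), a call lost without saline library 1 (0.49), without WT DOX library 2 (0.35) or 3 (0.49) and with quantile normalization (0.30). Cxcl14 (gene ID 57266), a constitutively made chemokine of epithelia and stroma, went the other way, with 9.98, 8.64 and 7.55 FPKM in Sting-/- DOX hearts, 9.49, 9.99 and 9.13 FPKM in WT DOX hearts and 15.2, 12.01 and 13.6 FPKM in saline hearts. Saline libraries were the highest, and both doxorubicin groups overlapped. Cxcl14 fell in WT DOX against saline (log2 fold change -0.47, SE 0.095, limma adjusted p = 0.00102; -0.70 with median-ratio scaling). Sting-/- DOX against WT DOX did not pass (log2 fold change -0.12, SE 0.095, limma adjusted p = 0.247, 95% interval -0.33 to 0.09) but passed as lower with median-ratio scaling (-0.43) and quantile normalization (-0.40).

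Of 8 tested CC ligands of dendritic cells, T cells and homeostasis, 1 (Ccl21a) was called in WT DOX against saline, and 4 were higher in Sting-/- DOX than in WT DOX, where 54.1% of all genes were higher. Ccl21a (gene ID 18829), which guides dendritic cells and T cells to lymphatic vessels through Ccr7, was at 71.6, 90.4 and 78.6 FPKM in Sting-/- DOX hearts, 43.1, 42.6 and 44.9 FPKM in WT DOX hearts and 31.96, 30.5 and 30.4 FPKM in saline hearts. Its groups did not overlap. The log2 fold change was 0.48 (SE 0.069, limma adjusted p = 6.63e-05) in WT DOX against saline (0.23 with median-ratio scaling) and 0.86 (SE 0.069, limma adjusted p = 1.67e-07) in Sting-/- DOX against WT DOX (0.52 with median-ratio scaling). Copies of Ccl21 are nearly identical: 71.6% of 50-base windows of the Ccl21a transcript also occur in other genes, so single values are uncertain.

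Ccl21c (gene ID 65956) and Ccl21d (gene ID 100862177) had the same value as each other in every library, 10.96, 0.92 and 10.7 FPKM in Sting-/- DOX hearts, 6.45, 4.96 and 5.92 FPKM in WT DOX hearts and 4.33, 4.64 and 5.68 FPKM in saline hearts. Sting-/- DOX library 2 stood apart at 0.92 FPKM, and Ccl21a was highest there. The 3 copies summed to 93.6, 92.3 and 100.1 FPKM in Sting-/- DOX, 56.1, 52.6 and 56.7 FPKM in WT DOX and 40.6, 39.8 and 41.8 FPKM in saline libraries. The shared value of Ccl21c and Ccl21d enters this sum under each ID, and they count as 2 tested members. In the sum Sting-/- DOX library 2 did not stand apart. Neither Ccl21c nor Ccl21d passed in any comparison, and Sting-/- DOX against WT DOX gave -0.06 with all libraries and 0.81 (limma adjusted p = 4.3e-05) without Sting-/- DOX library 2. Against saline the values were 0.14 and, without that library, 1.02 (limma adjusted p = 5.12e-06).

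Ccl27a (gene ID 20301), a ligand of Ccr10 known from skin, had 14.9, 13.8 and 20.6 FPKM in Sting-/- DOX hearts, 14.2, 10.2 and 7.62 FPKM in WT DOX hearts and 9.88, 9.47 and 6.67 FPKM in saline hearts. WT DOX overlapped both other groups. It was higher in Sting-/- DOX than in WT DOX (log2 fold change 0.60, SE 0.2, limma adjusted p = 0.0155), a call lost without WT DOX library 3 (0.40), without Sting-/- DOX library 3 (0.43), under quantile normalization (0.36) and under median-ratio scaling (0.27). Its transcripts share 53.3% of windows with other genes, among them Ccl27b. Ccl27b (gene ID 100040048) shares 98.1% of its windows, had 0.29, 1.52 and 1.18 FPKM in Sting-/- DOX hearts, 1.48, 1.47 and 1.9 FPKM in WT DOX hearts and 1.03, 1.19 and 0.14 FPKM in saline hearts and passed in no comparison. In WT DOX against saline its log2 fold change was 0.60 (limma adjusted p = 0.0617), and it passed without saline library 2 (0.78), without Sting-/- DOX library 1 (0.60) and in a fit of only the 2 groups compared (0.60).

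Ccl17 (gene ID 20295), a ligand of Ccr4 made by dendritic cells, averaged 3.98 ± 0.855 FPKM in Sting-/- DOX, 0.38 ± 0.387 FPKM in WT DOX and 0.25 ± 0.217 FPKM in saline hearts (SD, n = 3 each). All Sting-/- DOX libraries lay above all others, and WT DOX and saline overlapped. It was higher in Sting-/- DOX than in WT DOX (log2 fold change 1.87, SE 0.2, limma adjusted p = 2.18e-06; 3.34 with a pseudocount of 0.1). Beside it, 3 of 4 tested dendritic cell markers (Cd209a, Clec9a and Zbtb46) were higher in Sting-/- DOX than in WT DOX and Itgax was lower. Of all genes tested, 54.1% were higher and 29.7% lower. Cd209a averaged 2.66 FPKM in Sting-/- DOX, 0.47 in WT DOX and 0.16 in saline. It thus entered the test through Sting-/- DOX, so the count is no support for a change. All 6 listed markers summed to 30.7 to 31.2 FPKM in Sting-/- DOX, 10.9 to 11 in WT DOX and 6.9 to 7.4 in saline. Zbtb46 carried most of the Sting-/- DOX sum, averaging 18.7 FPKM there, 3.51 in WT DOX and 4.46 in saline. The part of these markers in the result was not tested. Ccl25 (gene ID 20300), a ligand of Ccr9 known from thymus and gut, averaged 1.98 ± 0.604 FPKM in Sting-/- DOX, 1.14 ± 0.0404 FPKM in WT DOX and 1.13 ± 0.284 FPKM in saline hearts. It was higher in Sting-/- DOX than in WT DOX (log2 fold change 0.45, SE 0.14, limma adjusted p = 0.0119), a call lost without Sting-/- DOX library 1 (0.33), under quantile normalization (0.14) and under median-ratio scaling (0.24).

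Ccl19 (gene ID 24047), which shares Ccr7 with Ccl21, was uneven between libraries, at 2.15, 0.78 and 3.6 FPKM in Sting-/- DOX hearts, 0.61, 0.65 and 1.99 FPKM in WT DOX hearts and 0.36, 1.48 and 0.4 FPKM in saline hearts. All 3 groups overlapped. It did not pass in WT DOX against saline (0.25, limma adjusted p = 0.542) or in Sting-/- DOX against WT DOX (0.57, limma adjusted p = 0.145). The second passed without WT DOX library 3 (0.86) or Sting-/- DOX library 2 (0.93). Pseudogene copies share 57.2% of its transcript windows.

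**Figure D4:**
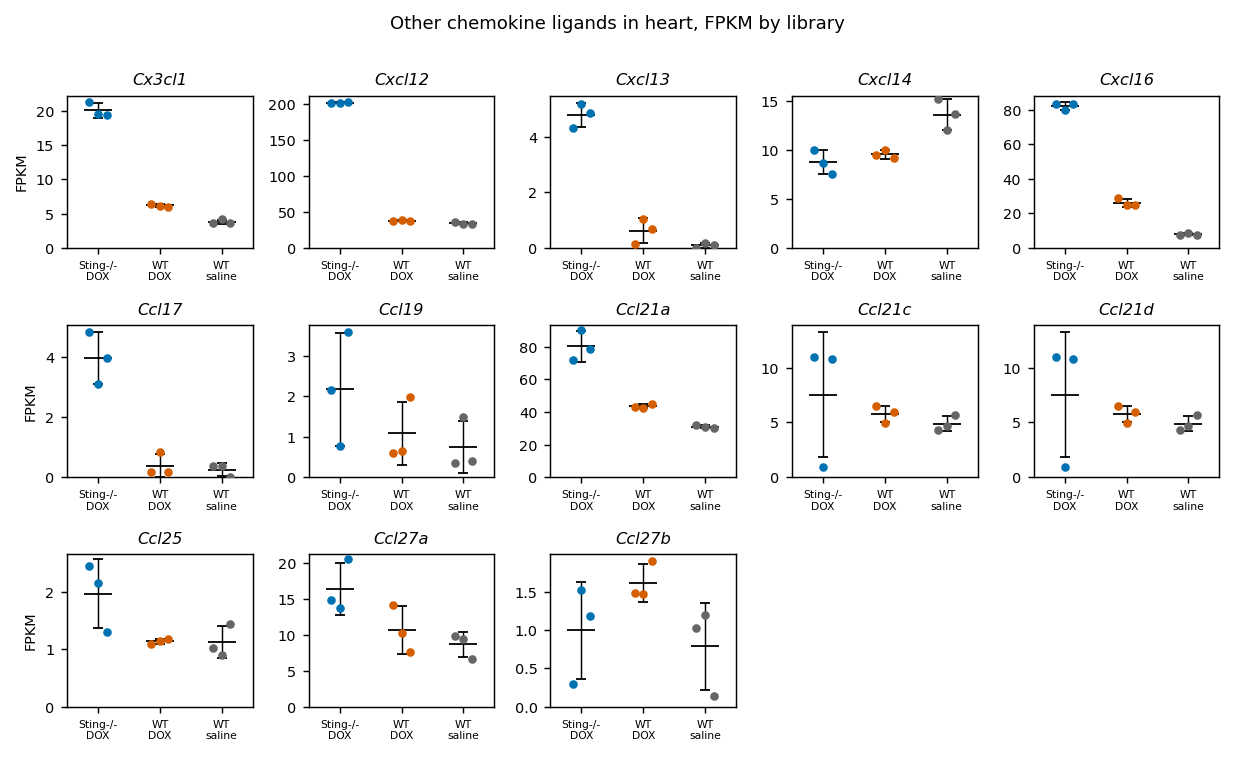
FPKM of 13 other chemokine ligands, 1 panel each with its own linear axis from 0, with points for the 3 libraries of each group and a bar for the mean with SD. Cxcl12 was near 200 FPKM in Sting-/- DOX libraries and below 40 FPKM in the others, and in Ccl21c and Ccl21d 1 Sting-/- DOX library lay at 0.92 FPKM.

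The 7 receptors described here all rose in WT DOX against saline, where 45.3% of all genes tested rose. Cxcr2, Cxcr3 and Cxcr6 were under 1 FPKM in saline and entered the test through the doxorubicin groups. Ccr2 (gene ID 12772), the receptor by which inflammatory monocytes leave marrow and enter tissue, was at 18.7, 17.1 and 17.2 FPKM in Sting-/- DOX hearts, 31.8, 29.8 and 30.2 FPKM in WT DOX hearts and 1.24, 1.26 and 1.11 FPKM in saline hearts. Both doxorubicin groups lay far above saline without overlap. On the log2 scale the fold change was 3.84 (SE 0.057, limma adjusted p = 4.31e-13) in WT DOX against saline, a ratio of means of 25.4, and -0.76 (SE 0.057, limma adjusted p = 9.04e-08) in Sting-/- DOX against WT DOX. The ratio of means in the second comparison was 0.58 for the receptor and 0.089 for its ligand Ccl2.

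Ccr1 (gene ID 12768), the receptor of Ccl3, Ccl6 and Ccl9 on neutrophils and monocytes, had 4.59, 4.52 and 4.47 FPKM in Sting-/- DOX hearts, 22.4, 25.1 and 24.4 FPKM in WT DOX hearts and 1.17, 1.18 and 1.4 FPKM in saline hearts. WT DOX stood apart from both other groups. Ccr1 rose in WT DOX against saline (log2 fold change 3.47, SE 0.066, limma adjusted p = 2.6e-12) and was lower in Sting-/- DOX than in WT DOX (log2 fold change -2.17, SE 0.066, limma adjusted p = 2.07e-11). Beside the monocyte receptors, 8 of 8 monocyte and macrophage markers rose in WT DOX against saline, where 45.3% of all genes did so. In Sting-/- DOX against WT DOX 4 were higher (Adgre1, Cd68, Csf1r and Lyz2) and 3 lower, where 54.1% and 29.7% of all genes were. The lower ones were Ly6c2, a mark of inflammatory monocytes, at -4.96, Itgam at -1.58 and Mrc1 at -0.41. The part of these markers in the result was not tested, and Ly6c2 has a close paralog that makes its value uncertain.

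Cxcr2 (gene ID 12765), the neutrophil receptor of Cxcl1, Cxcl2 and Cxcl5, had 2.55, 2.77 and 2.61 FPKM in Sting-/- DOX hearts, 7.07, 9.68 and 7.8 FPKM in WT DOX hearts and 1.12, 0.8 and 0.77 FPKM in saline hearts. WT DOX was highest, and groups did not overlap. Its log2 fold change was 2.27 (SE 0.11, limma adjusted p = 3.58e-09) in WT DOX against saline and -1.32 (SE 0.11, limma adjusted p = 1.85e-07) in Sting-/- DOX against WT DOX. Cxcr6 (gene ID 80901), the receptor of Cxcl16 on T and NK cells, had 1.6, 1.05 and 1.4 FPKM in Sting-/- DOX hearts, 5.7, 5.03 and 5.72 FPKM in WT DOX hearts and 0.53, 0.37 and 0.53 FPKM in saline hearts. Again WT DOX lay above both other groups, whereas Cxcl16 itself was highest in Sting-/- DOX. Cxcr6 rose in WT DOX against saline (log2 fold change 2.13, SE 0.1, limma adjusted p = 3.89e-09) and was lower in Sting-/- DOX than in WT DOX (log2 fold change -1.47, SE 0.1, limma adjusted p = 4.18e-08).

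Receptors with their highest level in Sting-/- DOX hearts were Cxcr4, Cx3cr1 and Cxcr3. Cxcr4 (gene ID 12767), the Cxcl12 receptor of leukocytes and endothelial tip cells, was at 35.9, 35.3 and 35.8 FPKM in Sting-/- DOX hearts, 14.1, 14.9 and 13.3 FPKM in WT DOX hearts and 3.84, 3.48 and 3.26 FPKM in saline hearts. Its groups lay far apart, with narrow spread in Sting-/- DOX. The log2 fold change was 1.74 (SE 0.06, limma adjusted p = 2.42e-10) in WT DOX against saline and 1.28 (SE 0.06, limma adjusted p = 1.02e-09) in Sting-/- DOX against WT DOX. Cx3cr1 (gene ID 13051), the fractalkine receptor of patrolling monocytes and resident macrophages, had 17.6, 15.9 and 15.9 FPKM in Sting-/- DOX hearts, 8.84, 6.26 and 6.69 FPKM in WT DOX hearts and 2.71, 2.35 and 2.49 FPKM in saline hearts. No groups overlapped, and Sting-/- DOX was highest. Cx3cr1 rose in WT DOX against saline (log2 fold change 1.22, SE 0.1, limma adjusted p = 5.55e-07) and was higher in Sting-/- DOX than in WT DOX (log2 fold change 1.09, SE 0.1, limma adjusted p = 6.5e-07). Cxcr3 (gene ID 12766), the receptor of Cxcl9 and Cxcl10, averaged 1.8 ± 0.125 FPKM in Sting-/- DOX, 1.4 ± 0.614 FPKM in WT DOX and 0.24 ± 0.0635 FPKM in saline hearts (SD, n = 3 each). It rose in WT DOX against saline (log2 fold change 0.91, SE 0.16, limma adjusted p = 0.000374), and Sting-/- DOX against WT DOX did not pass (log2 fold change 0.26, SE 0.16, limma adjusted p = 0.155, 95% interval -0.10 to 0.62).

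The 4 atypical receptors were all tested, and doxorubicin moved them in both directions. Ackr3 (gene ID 12778), which takes up Cxcl12, was the most abundant, at 27.6, 27.1 and 28.9 FPKM in Sting-/- DOX hearts, 34.7, 37.2 and 38.01 FPKM in WT DOX hearts and 48.2, 52.8 and 52.6 FPKM in saline hearts. Saline was highest and Sting-/- DOX lowest, without overlap, whereas Cxcl12 was highest in Sting-/- DOX. Ackr3 fell in WT DOX against saline (log2 fold change -0.47, SE 0.051, limma adjusted p = 6.23e-06; -0.72 with median-ratio scaling) and was lower in Sting-/- DOX than in WT DOX (log2 fold change -0.38, SE 0.051, limma adjusted p = 1.9e-05; -0.71 with median-ratio scaling). Ackr4 (gene ID 252837), which removes Ccl19, Ccl21 and Ccl25, had 6.23, 5.48 and 5.32 FPKM in Sting-/- DOX hearts, 2.38, 3.02 and 3.07 FPKM in WT DOX hearts and 4.3, 4.59 and 5.14 FPKM in saline hearts. WT DOX was lowest, and no groups overlapped. Ackr4 fell in WT DOX against saline (log2 fold change -0.57, SE 0.092, limma adjusted p = 0.000157) and was higher in Sting-/- DOX than in WT DOX (log2 fold change 0.81, SE 0.092, limma adjusted p = 4.42e-06; 0.52 with median-ratio scaling). Part of its transcript (10.4% of windows) overlaps Acad11 on the opposite strand, which averaged 11.3 ± 0.539 FPKM in Sting-/- DOX, 34.8 ± 0.18 in WT DOX and 66.3 ± 0.386 in saline hearts.

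Ackr1 (gene ID 13349), a chemokine binder of venular endothelium and red cells, averaged 2.43 ± 0.697 FPKM in Sting-/- DOX, 1.06 ± 0.172 FPKM in WT DOX and 0.067 ± 0.0808 FPKM in saline hearts (SD, n = 3 each). It rose in WT DOX against saline (log2 fold change 0.95, SE 0.14, limma adjusted p = 8.1e-05; 2.89 with a pseudocount of 0.1) and was higher in Sting-/- DOX than in WT DOX (log2 fold change 0.72, SE 0.14, limma adjusted p = 0.000433). Cadm3 shares 18% of its transcript windows. Ackr2 (gene ID 59289), which removes inflammatory CC chemokines, averaged 2.45 ± 0.393 FPKM in Sting-/- DOX, 1.22 ± 0.29 FPKM in WT DOX and 0.55 ± 0.0577 FPKM in saline hearts. It was higher in Sting-/- DOX than in WT DOX (log2 fold change 0.64, SE 0.12, limma adjusted p = 0.000244; 0.32 with quantile normalization). Its rise in WT DOX against saline (log2 fold change 0.51, SE 0.12, limma adjusted p = 0.00198) was lost with quantile normalization (0.18).

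**Figure D5:**
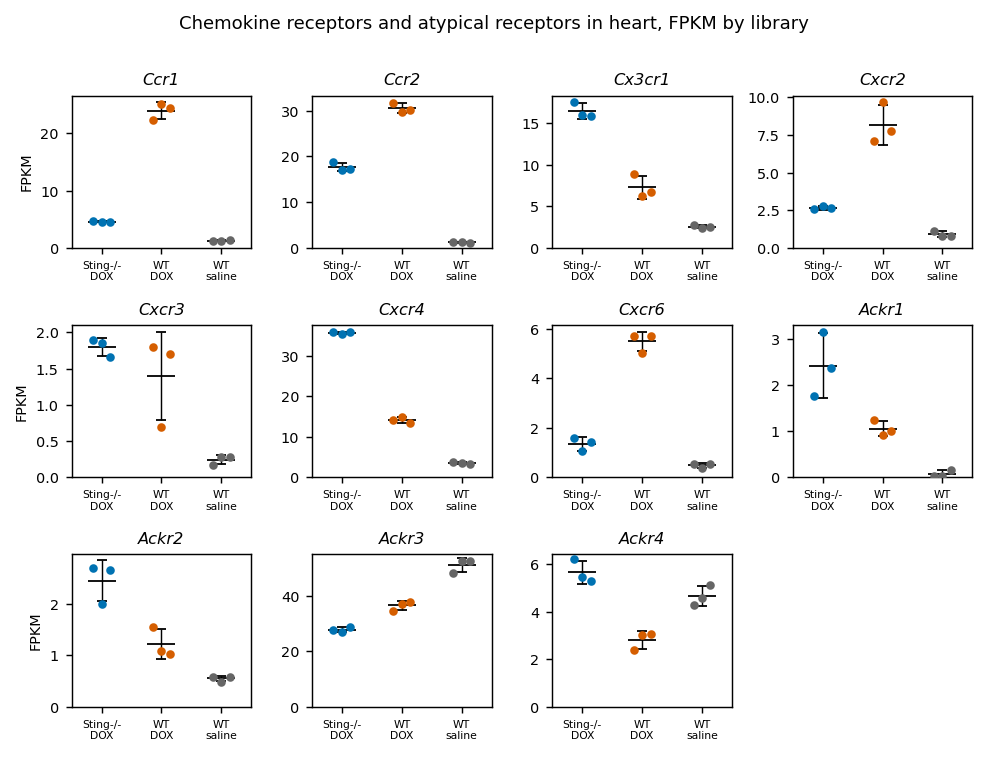
FPKM of 7 chemokine receptors and 4 atypical receptors, 1 panel each with its own linear axis from 0, with points for the 3 libraries of each group and a bar for the mean with SD. Ccr1, Ccr2, Cxcr2 and Cxcr6 had their highest mean in WT DOX, Cxcr4 and Cx3cr1 in Sting-/- DOX, and Ackr3 in saline.

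Sting-/- DOX hearts were also set against saline hearts. Ccl8 was the member with the largest difference, 4.38 (SE 0.096, limma adjusted p = 6.45e-13), followed on this scale by Cxcl16 at 3.25 (SE 0.069, limma adjusted p = 4.57e-13) and Ccr2 at 3.08 (SE 0.057, limma adjusted p = 1.55e-13). With a pseudocount of 0.1, Cxcl13 (4.87), Ccl3 (4.31), Cxcl5 (4.07), Ackr1 (3.99) and Ccl17 (3.83) lay above Cxcl16 and Ccr2. Ccl6 was higher by 1.72 (limma adjusted p = 4.8e-10) and Ccl7 by 1.67 (limma adjusted p = 1.15e-08), and Cxcl5 by 2.56 (limma adjusted p = 8.51e-11). The members lower than in saline were Ackr3 (-0.85, limma adjusted p = 7.04e-09), Ccl11 (-0.83, limma adjusted p = 0.000483) and Cxcl14 (-0.59, limma adjusted p = 8.6e-05). All other tested members were higher except Ccl24 (-0.05, limma adjusted p = 0.651), Ccl27b (0.16, limma adjusted p = 0.57), Ccl21c and Ccl21d, which did not pass. Ccl24 was called lower under median-ratio scaling (-0.40, limma adjusted p = 0.00274) and quantile normalization (-0.66, limma adjusted p = 4.57e-05). The call of Ackr4 (0.23, limma adjusted p = 0.0299) turned to -0.26 under median-ratio scaling and -0.31 under quantile normalization and was lost without saline library 1 (0.19) or 2 (0.22) or Sting-/- DOX library 1 (0.18). That of Ccl19 (0.82, limma adjusted p = 0.0416) was lost without saline library 1 (0.67) or 3 (0.69), without Sting-/- DOX library 1 (0.77) or 3 (0.50), with no filter or no variance trend (0.82 each), under quantile normalization (0.21) and under median-ratio scaling (0.51). For members that stayed called, the difference moved by over 1.5 times for 9 under median-ratio scaling, for 11 under quantile normalization and for 13 with a pseudocount of 0.1. Quantile normalization also ended the calls of Ccl25 (-0.16), Ccl27a (0.38) and Cxcr6 (0.036), and median-ratio scaling those of Ccl25 (0.12), Ccl27a (0.30) and Ccl5 (0.48).

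The 12 members below a mean of 1 FPKM were not tested. Ccr7 (gene ID 12775), the receptor of Ccl19 and Ccl21 on dendritic cells and naive T cells, was the only one with a group mean above 1 FPKM, at 1.2, 1.87 and 1.09 FPKM in Sting-/- DOX hearts, 0.55, 0.68 and 0.55 FPKM in WT DOX hearts and 0, 0.18 and 0.14 FPKM in saline hearts. Its groups did not overlap, and Sting-/- DOX was highest. Ccl22, a Ccr4 ligand, was at 0.67, 0.96 and 0.77 FPKM in Sting-/- DOX hearts, 0.67, 0.57 and 0.6 FPKM in WT DOX hearts and 0.1, 0.1 and 0.15 FPKM in saline hearts, with both doxorubicin groups above saline. The other 10 reached at most 0.46 FPKM in any library. They were Ccr10 (0.46), Cxcl17 (0.34), Cxcr5 (0.29), Ccl1 (0.26), Ccr9 (0.26), Ccr3 (0.19), Ccl28 (0.17), Ccr1l1 (0.14), Ccr6 (0.13) and Cxcl15 (0.06), each with its highest library in FPKM. Cxcl15 was listed at 0 in 8 of 9 libraries and Cxcl17 in 5. At these levels 1 or a few reads set the value. Cxcr5 is the receptor of Cxcl13 and Ccr3 that of the eotaxins, and both stayed low in libraries in which their ligands were detected.

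Genes that work with chemokines but fall outside the naming rule were read from lists chosen by function. Among 37 genes of receptor signalling and cell migration, all tested, 33 rose in WT DOX against saline, with a median log2 fold change of 0.79. The haematopoietic kinase Fgr (2.92), the GTPase Rac2 (2.23) and the exchange factor Vav1 (2.02) were among them. In Sting-/- DOX against WT DOX 23 were higher and 7 lower, with Fgr (-0.90) and Was (-0.43) among the lower. Their median of 0.29 stands beside 0.249 over all genes, of which 54.1% were higher and 29.7% lower. Of 13 NF-kB genes, 10 rose in WT DOX against saline (median 0.36), led by the kinase gene Ikbke (2.04). Sting-/- DOX against WT DOX gave 10 higher, led by Relb (1.40) and Ikbkb (1.36), and 1 lower, Rel (-0.56), with a median of 0.67. Over all genes the median was 0.128 in WT DOX against saline, where 45.3% rose. Some genes of both lists, among them Fgr, Vav1 and Ikbke, averaged under 1 FPKM in saline. They entered the test through the doxorubicin groups, so the counts that rose are no support for a change.

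Of 9 other chemokine-type ligands and receptors, 7 were tested. Of these, 2 were higher and 4 lower in Sting-/- DOX than in WT DOX, where 54.1% and 29.7% of all genes were. Pf4, the platelet chemokine also known as Cxcl4, was at 79.9 ± 3.75 FPKM in Sting-/- DOX, 177.0 ± 16.8 in WT DOX and 34.6 ± 0.329 in saline hearts (SD, n = 3 each). It rose in WT DOX against saline (2.32) and was lower in Sting-/- DOX than in WT DOX (-1.13), as was Ppbp (2.76 and -0.30). Both are on the platelet list, whose 2 other markers were higher in Sting-/- DOX than in WT DOX. Gp9 averaged 5.47 FPKM in Sting-/- DOX and 1.1 in WT DOX hearts, and Itga2b 2.83 and 0.71 FPKM. Itga2b entered the test through Sting-/- DOX. Cd74 also had a higher mean in Sting-/- DOX, at 626.2 ± 7.82 FPKM against 306.5 ± 73.1 in WT DOX. Ccrl2, a receptor-like protein that binds chemerin, fell in WT DOX against saline (-0.31) and was lower in Sting-/- DOX than in WT DOX (-0.64). Xcl1 and Xcr1 were below the limit for testing.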

How the data were processed

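RNA of 9 mouse heart libraries was extracted with a column kit and prepared with an MGI library kit, per the labels' protocols. For each library the authors deposited FPKM values to 2 decimals, listed by gene ID for the same 16873 genes. Per the submitters' processing notes, HISAT2 2.0.4, Bowtie2 2.2.5, RSEM 1.2.12 and GRCm39 were named, with no role or order. Which of them made the FPKM values, and whether strand was used, is not given in the sources used here. Depth was estimated from whole-read steps of low values, and read counts were not recovered.

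Symbols came from the RefSeq GRCm38.p6 table, which matched 16825 IDs and left 48 unmatched, and promoter sequences from the same table. Of 65 RefSeq symbols that meet the naming rule, 53 were in the tables. The other 12 were not analysed here. Members and lists were chosen with earlier results of these data known. Genes averaging 1 FPKM or more were fitted with limma 3.58.1 (R 4.3.3, variance trend) on log2(FPKM + 1) over all 9 libraries, without a replicate block, with Benjamini-Hochberg adjustment over all genes tested and a threshold of 0.05. The limma step was tested on simulated data. A single tested member, counted in the totals, is not reported here. Every other tested member is named, with values in each library where a group mean reached 5 FPKM and otherwise with group means or, for Ccl19 and Ccl27b, values in each library. Sharing of sequence was counted as 50-base windows of coding transcripts that recur in other annotated genes. Proteins were not used here. Alternatives were a pseudocount of 0.1, no filter or a mean of at least 5 FPKM, median-ratio, quantile and TPM scaling, no variance trend, only the groups compared, a replicate block, and leaving out each library.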

Additional observations from a re-analysis of the deposited data

How the results depend on the processing

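Of 123 member results, 89 kept their call and direction in all 18 alternatives and 34 did not. Scaling moved the most. Under median-ratio scaling and quantile normalization, WT DOX against saline gave 3582 and 3461 genes higher (5651 as reported) and 5109 and 5363 lower (2680), and Sting-/- DOX against saline gave 5493 and 5205 lower (3228), with 5 members lower under each (3 as reported). Their median over all genes shifted to -0.085 and -0.104, and to -0.016 and 0.029. With a mean of at least 5 FPKM, 26 members were tested, and 9 and 22 of them were higher in Sting-/- DOX than in WT DOX and than in saline, fewer because fewer members entered. Leaving out 1 library at a time gave 28 to 31 members higher in WT DOX against saline, 13 to 17 higher and 17 to 19 lower in Sting-/- DOX against WT DOX, and 32 to 36 higher in Sting-/- DOX against saline.

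The direction changed as follows, in the order median-ratio scaling, quantile normalization, and the range without 1 library. For WT DOX against saline these were Ccl11 (-0.11, -0.20, -0.032 to 0.25), Ccl25 (-0.12, -0.30, -0.057 to 0.12), Cxcl12 (-0.12, -0.036) and both Ccl21c and Ccl21d (-0.0079, -0.049). Quantile normalization and single libraries turned Ccl17 (-0.17, and -0.092 to 0.24 without 1 library) and Ccl19 (-0.089, and -0.042 to 0.53). For Sting-/- DOX against WT DOX, quantile normalization turned Cxcr3 (-0.062), and single libraries turned Ccl21c and Ccl21d (-0.51 to 0.81) and Ccl5 (-0.32 to 0.048). For Sting-/- DOX against saline these were Ackr4 (-0.26, -0.31), Ccl21c and Ccl21d (-0.33, -0.37, -0.30 to 1.02), Ccl27b (-0.091, -0.39, -0.13 to 0.45), Ccl25 (-0.16 under quantile normalization) and Ccl24 (-0.11 to 0.037 without 1 library). The causes were not tested. Depth limits the members under 1 FPKM, where 1 or a few reads set a value.

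With the replicate block, members higher and lower were 30 and 3 in WT DOX against saline, 15 and 18 in Sting-/- DOX against WT DOX, and 34 and 3 in Sting-/- DOX against saline, as without it, and 5607, 6749 and 7879 genes were higher. Deviations of same-numbered libraries correlated at -0.032 to 0.104. The labels do not say what the number stands for, and these correlations cannot exclude a shared batch.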

Other observations

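Several members are neighbours with no other coding gene between them in the RefSeq annotation, and their values are set side by side here. In the run Ccl2, Ccl7, Ccl11, Ccl12, Ccl8 and Ccl1 on chromosome 11, Sting-/- DOX against WT DOX gave log2 fold changes of -3.37 for Ccl2, -2.67 for Ccl7, -0.91 for Ccl11, -1.39 for Ccl12 and 0.65 for Ccl8, and Ccl1 was not tested. Ccl8 is the member of this run that differed in sign. On chromosome 9, where Ccr1, Ccr1l1, Ccr3 and Ccr2 are neighbours, the same comparison gave -2.17 for Ccr1 and -0.76 for Ccr2. In the run Ccl22, Cx3cl1 and Ccl17 on chromosome 8, Cx3cl1 was higher in Sting-/- DOX by 1.55 and Ccl17 by 1.87.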
